A study of Mus musculus with 5 samples.

Results

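The loci of 7 genes that mark or maintain pluripotency, Pou5f1, Sox2, Nanog, Klf4, Esrrb, Prdm14 and Zfp42, were examined for 5-methylcytosine (5mC) and 5-hydroxymethylcytosine (5hmC) in mouse embryonic stem cells. Each gene was represented by a window fixed by its mm9 position, not by its signal. The 7 windows held 214 of the 2638957 bins of 1 kb on chromosomes 1 to 19 and X, and 161 of these 214 bins lay in Esrrb. The flanks of 10 kb on both sides of each window added 140 bins. The windows were chr17:35642001-35648000 for Pou5f1, chr3:34547001-34551000 for Sox2, chr6:122657001-122665000 for Nanog, chr4:55540001-55546000 for Klf4, chr12:87702001-87863000 for Esrrb, chr1:13102001-13118000 for Prdm14 and chr8:44380001-44393000 for Zfp42.

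There were 4 enriched libraries and 1 input library, with 1 library per group and no replicate. Per the labels, the enriched DNA came from E14 clones of the SIGTR gene-trap library at passages 11 to 14. The input was chromatin DNA of another E14 derivative, TNG-A, whose Nanog locus carries an EGFP reporter, so every ratio to input also sets one cell line against another. Both were grown without feeders in 10% fetal calf serum with leukaemia inhibitory factor. The number of clones that were sampled, the trapped genes and their relation to the 7 loci were not given in the labels. In MeDIP and hMeDIP, 2 µg of an antibody against 5mC or 5hmC were used to isolate denatured DNA. In MethylCap, 2 µg of a methyl-CpG binding domain (MBD) protein captured 1 µg of DNA, which was eluted with 600 mM or 800 mM NaCl. Reads on chromosomes 1 to 19 and X numbered 18519740 for hMeDIP, 10442811 for MeDIP, 10462783 for the 600 mM eluate, 7507520 for the 800 mM eluate and 18676265 for input.

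As background, Pou5f1 (Oct4), Sox2 and Nanog are transcription factors that form the core of the network that keeps embryonic stem cells undifferentiated. Klf4 and Esrrb encode further factors of that network, Prdm14 encodes a regulator that restrains de novo methylation in these cells, and Zfp42 (Rex1) is a widely used marker of the undifferentiated state. Methylation of cytosine in CpG is carried by DNA methyltransferases, and Tet enzymes oxidise 5mC to 5hmC. Promoters with many CpG sites are mostly unmethylated in embryonic stem cells.

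The first 250 bases before the annotated start are shown for 5 of the genes because they span the range of CpG content among the loci, and CpG is the site that the MBD protein recognises. The sequences are from RefSeq on GRCm38.p6 and carry positions of that build, which were not converted to mm9. Where a gene had more than 1 start, the one farthest upstream was taken. CpG dinucleotides are in capitals, and each strand is written 5′ to 3′.
Klf4 (chr4:55532476-55532725, - strand): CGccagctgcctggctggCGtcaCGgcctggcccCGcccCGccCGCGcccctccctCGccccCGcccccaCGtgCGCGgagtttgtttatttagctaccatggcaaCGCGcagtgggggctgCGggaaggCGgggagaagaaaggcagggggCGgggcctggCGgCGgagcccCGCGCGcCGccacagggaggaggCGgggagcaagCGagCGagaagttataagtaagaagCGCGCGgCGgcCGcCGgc
Sox2 (chr3:34649745-34649994, + strand): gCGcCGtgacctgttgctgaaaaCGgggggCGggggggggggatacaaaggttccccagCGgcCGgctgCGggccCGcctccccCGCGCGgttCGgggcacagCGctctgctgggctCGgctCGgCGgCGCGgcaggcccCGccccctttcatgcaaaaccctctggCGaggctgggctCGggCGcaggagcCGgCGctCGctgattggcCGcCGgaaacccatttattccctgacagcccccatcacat
Pou5f1 (chr17:35505782-35506031, + strand): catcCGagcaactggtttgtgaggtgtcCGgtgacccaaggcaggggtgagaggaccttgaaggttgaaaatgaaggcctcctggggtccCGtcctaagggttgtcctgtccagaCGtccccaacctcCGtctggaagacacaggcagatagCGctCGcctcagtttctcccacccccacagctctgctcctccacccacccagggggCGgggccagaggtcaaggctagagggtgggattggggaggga
Nanog (chr6:122707239-122707488, + strand): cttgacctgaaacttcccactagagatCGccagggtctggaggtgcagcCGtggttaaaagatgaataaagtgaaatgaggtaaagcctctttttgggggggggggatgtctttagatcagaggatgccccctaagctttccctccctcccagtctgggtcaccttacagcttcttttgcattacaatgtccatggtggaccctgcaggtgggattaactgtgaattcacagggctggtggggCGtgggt
Esrrb (chr12:86360867-86361116, + strand): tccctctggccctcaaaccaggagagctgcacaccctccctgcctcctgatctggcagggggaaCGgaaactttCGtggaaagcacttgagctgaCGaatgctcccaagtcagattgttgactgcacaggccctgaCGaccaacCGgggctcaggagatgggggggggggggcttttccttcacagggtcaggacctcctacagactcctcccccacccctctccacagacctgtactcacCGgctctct
Of the 7 genes, 6 were matched in the RefSeq promoter table, all except Prdm14. The Klf4 sequence held 32 CpG sites and that of Sox2 held 27, whereas Zfp42 had 9, Pou5f1 8, Esrrb 6 and Nanog 3. The motif CG, which reads the same on both strands, was present in 92.1% of all 32851 promoter sequences of this length, with a median of 6 sites. Only 4.58% of promoters had at least as many CpG sites as Klf4 and 8.56% at least as many as Sox2, against 43.0% for Pou5f1 and 71.0% for Nanog.

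Ratios over a window are scaled reads (RPM, the reads of a region per 1000000 reads of the library) of a library divided by RPM of input, with exact 95% intervals of the read counts. These intervals describe counting error alone, because the reads carry no molecular identifiers and may share a source molecule. A single library per group allows no test between conditions. For single 1 kb bins, 0.5 RPM was added to both terms, which pulls bins with few reads toward 1, and a bin at 3-fold or more was counted as enriched. Intervals of single bins refer to the raw read ratio without this addition and can lie above the printed ratio. The strand of each gene was used to orient the loci, and the "5′ edge" is the edge of the window that faces the gene's start. The 5′ end segment comprised the 1 kb before this edge and the 2 kb after it. Exact start sites in mm9 were not used here. The median ratio of bins with at least 3 input reads was 0.839 in hMeDIP, 0.834 in MeDIP, 0.757 at 600 mM and 0.704 at 800 mM, so a locus at the level of most of the genome lies somewhat below 1, and setting these medians to 1 turned the direction of no window ratio whose interval excludes 1.

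Over the gene windows, Esrrb and Prdm14 were above input in all 4 libraries. Of the other 5, Nanog, Sox2 and Zfp42 were at or below input in every library, Klf4 was below it in MeDIP alone, and Pou5f1 was below it in all but the 800 mM eluate. Pooled over the 7 windows, hMeDIP was at 1.82 (1.72 to 1.92) and MeDIP at 1.15 (1.07 to 1.23), but without Esrrb at 0.926 (0.820 to 1.05) and 0.594 (0.501 to 0.702). The eluates were at 1.53 (1.44 to 1.64) and 1.60 (1.49 to 1.72), and without Esrrb at 0.964 (0.836 to 1.11) and 1.11 (0.952 to 1.29). Of the 214 window bins, 16 (7.48%) were enriched in hMeDIP, where 1.93% of all 2440090 bins with a read were. The count was 10 (4.67%) in MeDIP, against 2.50% of all bins. It was 13 (6.07%) in the 600 mM eluate, against 3.33%, and 18 (8.41%) in the 800 mM eluate, against 4.27%. Esrrb held 15, 9, 10 and 13 of these bins. In the 53 bins of the other 6 windows hMeDIP and MeDIP had 1 enriched bin each, and the eluates 3 and 5, so in the antibody libraries 1.89% of these bins were enriched, near the share of all bins. Across the 214 bins the median ratio was 1.18 in hMeDIP, 0.899 in MeDIP, with 1.12 and 1.09 for the 600 mM and 800 mM eluates. Over all bins with a read the medians were 0.872, 0.853, 0.801 and 0.757. The median over the 53 bins without Esrrb was 0.829 in hMeDIP and 0.651 in MeDIP. The excess over all bins with the antibodies thus came from Esrrb, which also supplied most of the bins. In the 600 mM and 800 mM eluates 5.66% and 9.43% of the 53 bins were enriched, against 3.33% and 4.27% of all bins. These are 3 and 5 bins, too few to show an excess. Of the 5, 2 lay at the 3′ end of Pou5f1, where the source of the reads was not tested. Those 2 bins also gave 42 of the 251 reads behind the ratio of 1.11 at 800 mM without Esrrb. Of the 214 bins, 36 were enriched in at least 1 library, where 6.99% of all bins were, and 1 was enriched in all 4. With bins of 5 or more input reads alone, the counts were 10 in hMeDIP (1.43% of all such bins), 6 in MeDIP (1.72%), 10 at 600 mM (2.34%) and 12 at 800 mM (3.32%). At 5-fold the excess of the eluates over all bins was absent, with 0 and 1 enriched bins of the 214 (0% and 0.467%) against 0.593% and 0.875%.

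**Figure D1:**
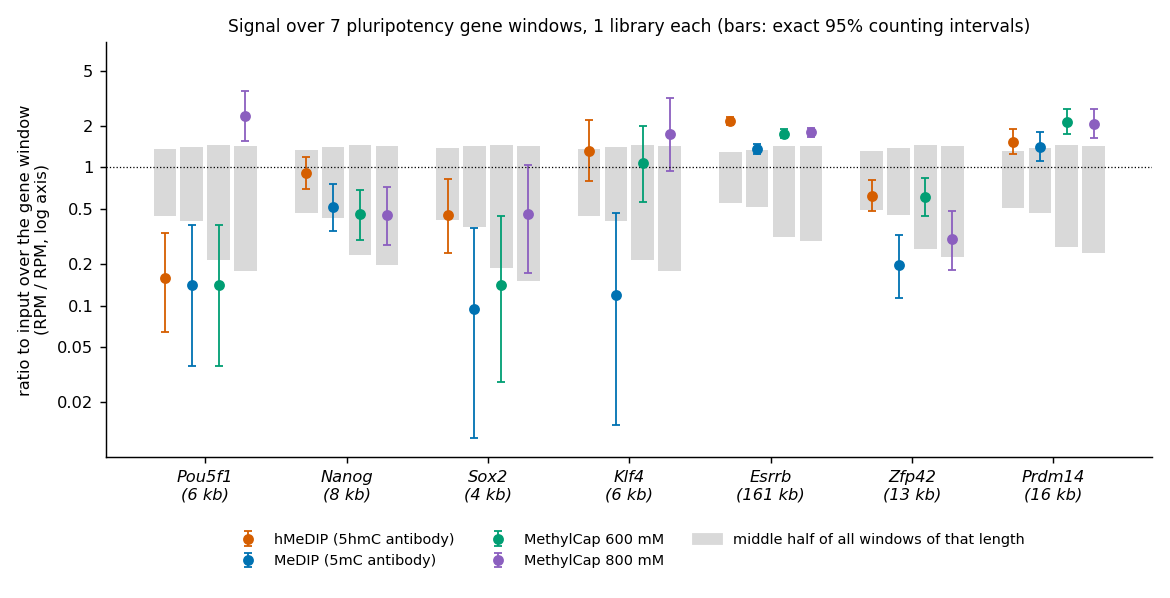
Ratio to input (RPM divided by RPM, log axis) over each gene window for the 4 enriched libraries, 1 library each. Points are ratios, bars are exact 95% intervals of read counts, and grey boxes span the lower to the upper quartile of all windows of that length. Esrrb and Prdm14 lie above 1 in all 4 libraries, and MeDIP is lowest at Pou5f1, Sox2, Klf4 and Zfp42, between 0.0941 and 0.197.

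Pou5f1 encodes the POU-domain factor Oct4 and lies within the major histocompatibility region of chromosome 17. Its 6 kb window held 8 hMeDIP, 4 MeDIP and 4 reads of the 600 mM eluate against 51 input reads. The ratios were 0.158 (0.0648 to 0.336) in hMeDIP, 0.140 (0.0368 to 0.382) in MeDIP and 0.140 (0.0367 to 0.381) in the 600 mM eluate. Only 2.73% of all 6 kb windows had a lower hMeDIP ratio and 3.78% a lower MeDIP ratio. The surrounding 1 Mb was rich in signal, with hMeDIP at 2.02-fold and MeDIP at 1.58-fold of input. The low stretch began before the gene: the 3 bins from 35639001 to 35642000 held 1, 0 and 0 hMeDIP reads and 0, 1 and 1 MeDIP reads, with 13, 12 and 16 input reads. Over the 5′ end segment, hMeDIP was at 0.133 (0.0408 to 0.338) and the 600 mM eluate at 0.0470 (0.00116 to 0.278). Signal returned downstream, where the bin at 35655001-35656000 held 45 hMeDIP reads (2.56-fold) and the bin at 35657001-35658000 held 17 MeDIP reads (2.17-fold) and 19 of the 600 mM eluate (2.36-fold).

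The 800 mM eluate departed from the other 3 libraries at the 3′ end of Pou5f1. It held 48 reads over the window, 16.7-fold (6.12 to 63.9) as many as the 600 mM eluate after scaling. Of these, 20 lay in the bin 35646001-35647000 and 22 in 35647001-35648000, the last 2 of the window. In the same bins hMeDIP had 0 and 1 reads, MeDIP 0 and 0, the 600 mM eluate 1 and 1, and input 8 and 1. The ratio to input of the 800 mM eluate was 3.41-fold and 6.20-fold, the latter over a single input read. In both bins the 800 mM eluate reached 3-fold or more of the 600 mM eluate, which 0.221% of all bins did. The 42 reads were not spread evenly. When read starts over 150 bp apart were separated, 39 of them fell into 3 clusters with 10 or more reads, at 35646359-35646471 (12 reads), 35646926-35647084 (16 reads) and 35647239-35647366 (11 reads). These clusters covered 400 bp, both strands were present in each, and together they held 2 input reads, 1 read of the 600 mM eluate and no read of either antibody library. The clusters were delimited after the reads were seen, and where they lie relative to the exons was not determined. Whether these reads came from genomic DNA of the locus or from other DNA that carries Pou5f1 sequence, such as cDNA or a plasmid, was not tested, so the 16.7-fold value need not measure captured methylated DNA of the gene. In the 10 kb flanks the eluates did not differ beyond counting error, at 0.854-fold (0.603 to 1.20) for 800 mM over 600 mM.

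Sox2 encodes an HMG-box factor that pairs with Oct4, and it is a single-exon gene. Its 4 kb window held 17 hMeDIP, 2 MeDIP, 3 reads of the 600 mM eluate and 7 of the 800 mM eluate, against 38 input reads. MeDIP was at 0.0941 (0.0110 to 0.364), and only 3.27% of windows of that length were lower, while hMeDIP was at 0.451 (0.239 to 0.819). The bin 34549001-34550000 held no read of any enriched library and 6 input reads. A deep trough extended to both sides. The bin 34546001-34547000 held 1 hMeDIP read and none of the other 3 against 23 input reads, and the bin 34553001-34554000 held 1 hMeDIP read and none of the others against 31. A count of 0 against 31 input reads is a raw MeDIP ratio of at most 0.226 by the exact interval. Of the 17 hMeDIP reads in the window, 14 lay in its first bin, before the 3 bins that follow with 0, 0 and 3. The MeDIP signal stayed low over the flanks, at 0.199 (0.136 to 0.282), while hMeDIP was at 0.999 (0.851 to 1.17) and the 600 mM eluate at 0.669 (0.537 to 0.829). No Sox2 bin was enriched with either antibody, and the highest hMeDIP bin was 34560001-34561000 with 53 reads (2.58-fold), 4 MeDIP reads (0.678-fold) and 29 reads of the 800 mM eluate (3.35-fold). At the 3′ edge, the bins 34550001-34552000 held 13 reads at 800 mM and 1 at 600 mM, 18.1-fold (2.72 to 769.9), and were picked after their values were seen. Bin by bin, the 800 mM eluate had 6 and 7 reads against 12 and 27 input reads, so neither was enriched over input.

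Nanog encodes a homeodomain factor. Over its 8 kb window hMeDIP held 109 reads, MeDIP 35, the 600 mM eluate 31 and the 800 mM eluate 22, against 121 input reads. The ratios were 0.908 (0.695 to 1.19) in hMeDIP, 0.517 (0.345 to 0.759) in MeDIP, 0.457 (0.298 to 0.683) at 600 mM and 0.452 (0.273 to 0.716) at 800 mM. The flanks were at 0.428 (0.322 to 0.562) at 600 mM and 0.362 (0.253 to 0.505) at 800 mM, and against them the window turned to 1.07 and 1.25, so the eluates were low around the gene as well as over it. No bin of the window was enriched in any library. The input itself was dense here, with 15.1 reads per kb in the window and 13.8 in the flanks, against 9.01 in the surrounding 1 Mb. That is more input than in 98.7% of windows of that length. The input line carries the reporter at this locus, and every ratio to input at Nanog rests on this density. The part of the reporter in it was not tested.

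A narrow block of antibody signal lay just before the Nanog window. The bin 122656001-122657000 held 109 hMeDIP and 43 MeDIP reads against 15 input reads, at 4.90-fold (raw ratio 4.25 to 13.5) and 3.54-fold (2.79 to 9.94). The same bin held 15 reads of the 600 mM eluate (1.48-fold) and 4 of the 800 mM eluate (0.793-fold), so the MBD capture did not exceed input beyond counting error. The neighbouring bin 122655001-122656000 held 66 hMeDIP reads (3.25-fold), 22 MeDIP reads (2.09-fold), 17 and 11 reads of the eluates, and 14 input reads. These 2 bins carried 75.8% of the hMeDIP reads and 77.4% of the MeDIP reads of the 10 kb before the gene. In steps of 250 bp, the reads concentrated in 122655751-122656250, which held 121 hMeDIP, 47 MeDIP, 15 and 4 eluate reads and 7 input reads. Over these 500 bp hMeDIP was 17.4-fold (8.21 to 44.3) over input and MeDIP 12.0-fold (5.39 to 31.5), against 3.83-fold (1.47 to 11.1) at 600 mM and 1.42-fold (0.305 to 5.59) at 800 mM. Compared without the input, hMeDIP was 1.45-fold (1.03 to 2.08) of MeDIP there. The antibody reads of this block lay almost entirely on 1 strand: 118 of the 121 hMeDIP reads and 46 of the 47 MeDIP reads mapped to the minus strand, against 9 of 15 at 600 mM and 5 of 7 of input. Over the whole genome the strands were even in each library, and in the Nanog window 50.5% of the hMeDIP reads were on the minus strand. The antibodies were applied to denatured DNA, and the part of the strand in this signal was not tested. The 500 bp were chosen after the reads were seen. The first 250 bp inside the window held 2 hMeDIP reads and no MeDIP read, and the bins from 122652001 to 122655000 held 0 to 2 MeDIP reads against 23 to 28 input reads.

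**Figure D2:**
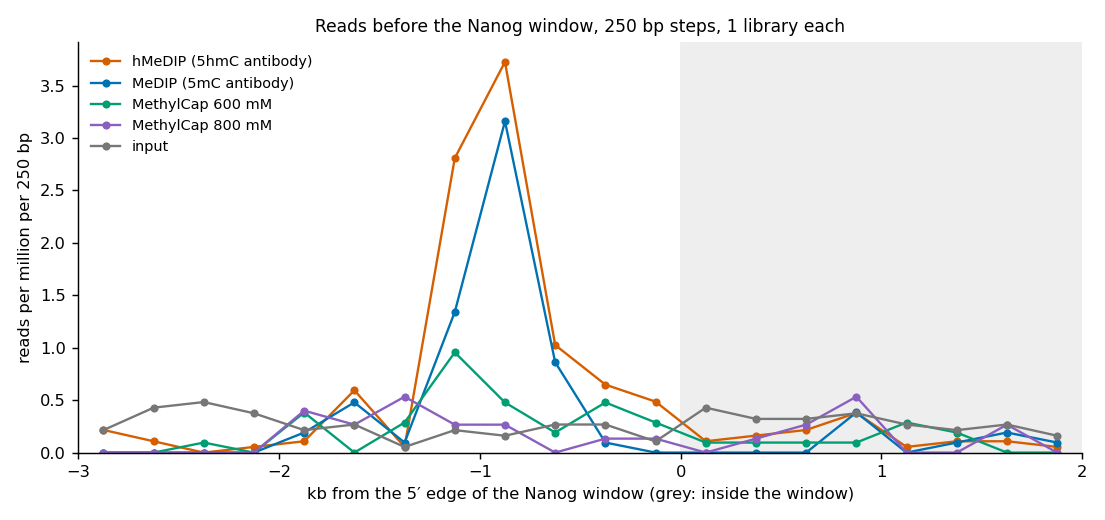
RPM in steps of 250 bp around the 5′ edge of the Nanog window (x axis in kb from the edge, grey inside the window), 1 line per library. Both antibody libraries peak about 1 kb before the edge, where the 2 highest steps hold 52 and 69 hMeDIP reads and 14 and 33 MeDIP reads, while input holds 4 and 3.

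Klf4 encodes a Krüppel-like zinc finger factor, and its promoter sequence, shown above, is the richest in CpG of the loci matched. Its 6 kb window held 39 hMeDIP reads, 2 MeDIP reads, 18 and 21 reads of the 600 mM and 800 mM eluates, and 30 input reads. MeDIP was at 0.119 (0.0138 to 0.470), while hMeDIP was at 1.31 (0.794 to 2.19), the 600 mM eluate at 1.07 (0.562 to 1.98) and the 800 mM eluate at 1.74 (0.948 to 3.14). Thus the 5mC antibody alone was below input, and the other 3 libraries did not differ from input beyond counting error. The direct ratio of MeDIP to the 600 mM eluate was 0.111 (0.0125 to 0.465). The reads of hMeDIP lay toward the 3′ end: from the 5′ edge inward, the 6 bins held 0, 3, 5, 5, 16 and 10. The first 2 bins held no read of MeDIP or of either eluate, but only 1 and 5 input reads, so little could be seen there at this depth. Before the gene, the bin 55547001-55548000 held 2 hMeDIP reads and none of the other 3 against 20 input reads. The highest antibody bin of the locus was 55534001-55535000 downstream, with 36 hMeDIP reads (2.79-fold) and 9 MeDIP reads (1.56-fold). The highest eluate bin was 55530001-55531000, with 21 reads at 800 mM (4.01-fold) and 15 at 600 mM (2.35-fold).

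Zfp42 encodes a zinc finger protein related to YY1. Over its 13 kb window hMeDIP held 101 reads, MeDIP 18, the 600 mM eluate 56 and the 800 mM eluate 20, against 163 input reads, which is more input than 96.0% of windows of that length. All 4 were below input, as were the 10 kb flanks. In the window hMeDIP was at 0.625 (0.483 to 0.806), MeDIP at 0.197 (0.114 to 0.322), the 600 mM eluate at 0.613 (0.444 to 0.836) and the 800 mM eluate at 0.305 (0.182 to 0.487). The flanks were at 0.474 (0.370 to 0.603) in hMeDIP, 0.191 (0.119 to 0.295) in MeDIP, 0.299 (0.204 to 0.427) at 600 mM and 0.382 (0.256 to 0.553) at 800 mM. Against these flanks the window turned to 1.32 in hMeDIP, 1.03 in MeDIP and 2.05 at 600 mM, so the low level was not particular to the gene. The surrounding 1 Mb was below input too, at 0.687-fold in hMeDIP, 0.638-fold in MeDIP, 0.443-fold at 600 mM and 0.393-fold at 800 mM. The 5′ end segment held 13 hMeDIP and 4 MeDIP reads against 46 of input. Further upstream, 5 of the 10 flank bins held no read in any library. Within the gene, the bin 44381001-44382000 near the 3′ end was the exception, with 31 reads of the 600 mM eluate (3.53-fold) and 27 hMeDIP reads (1.99-fold), but 4 reads at 800 mM (1.05-fold), 2 MeDIP reads (0.704-fold) and 9 input reads. The 600 mM eluate was 5.56-fold (1.97 to 21.7) over the 800 mM eluate there, in the direction opposite to Pou5f1. A bin at 3-fold or more in this direction was 0.111% of all bins.

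**Figure D3:**
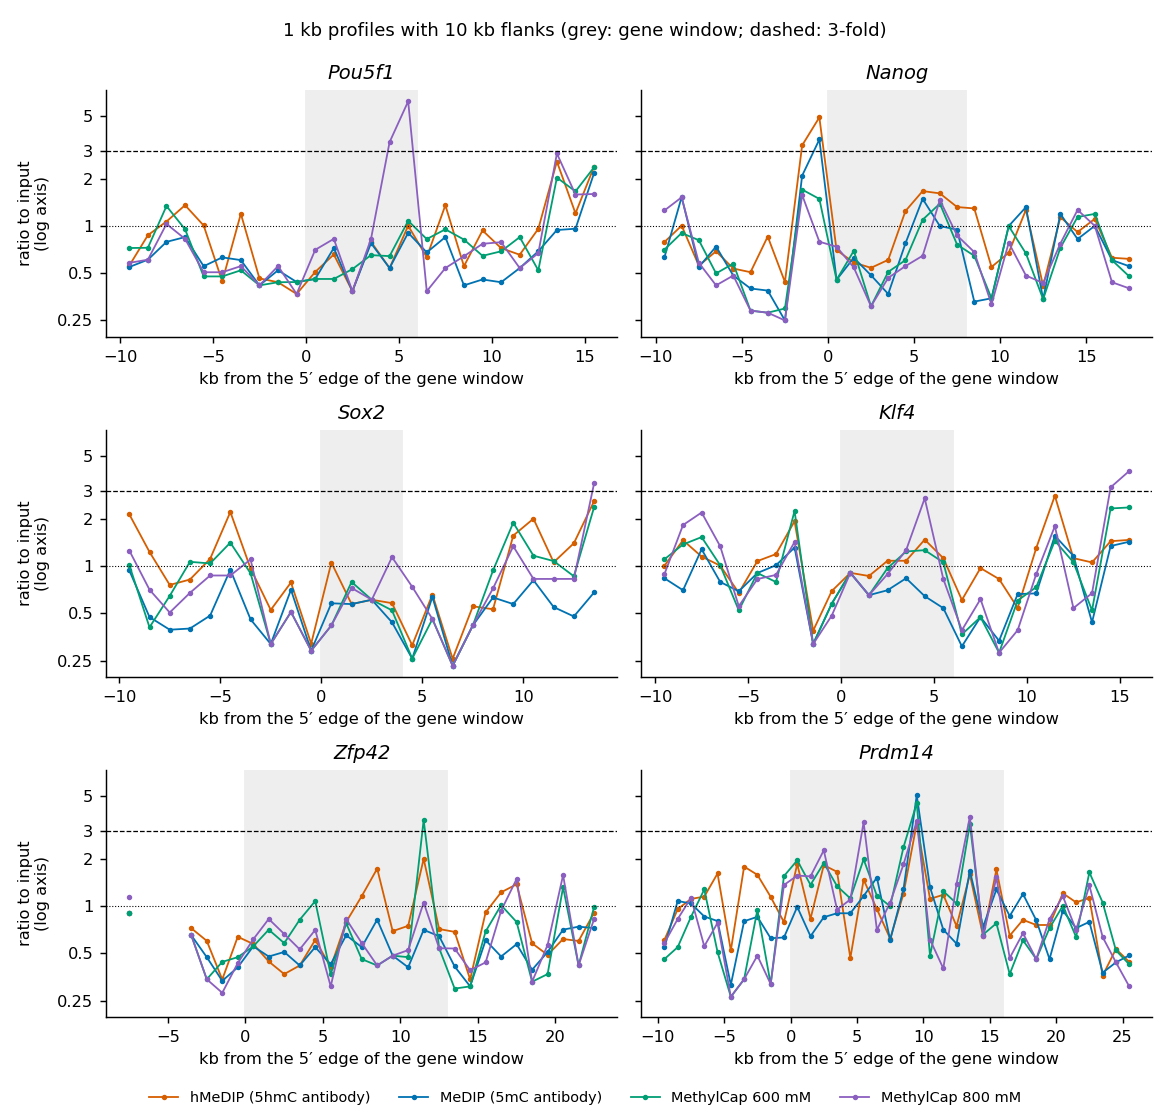
Ratio to input per 1 kb bin (log axis, 0.5 RPM added to both terms) against distance in kb from the 5′ edge of each window, for the 6 shorter loci, 1 line per library. Grey marks the window and the dashed line 3-fold. The 800 mM eluate alone rises at the end of Pou5f1, both antibodies rise just before Nanog, and the 5 bins without a read upstream of Zfp42 are left blank.

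Prdm14 encodes a PR-domain zinc finger protein, and its 16 kb window was above input in all 4 libraries. hMeDIP held 243 reads, MeDIP 126, the 600 mM eluate 192 and the 800 mM eluate 133, against 160 input reads. The ratios were 1.53 (1.25 to 1.88) in hMeDIP, 1.41 (1.11 to 1.79) in MeDIP, 2.14 (1.73 to 2.66) at 600 mM and 2.07 (1.63 to 2.62) at 800 mM. In the same order, they were above 81.25%, 76.2%, 86.6% and 85.3% of windows of that length. Outside the gene the signal was lower, and in the flanks MeDIP was at 0.514 (0.399 to 0.658), the 600 mM eluate at 0.532 (0.414 to 0.678) and the 800 mM eluate at 0.443 (0.323 to 0.597). Only hMeDIP had flanks near input, at 0.863 (0.726 to 1.03). The bin 13108001-13109000, inside the gene, was the single bin of the 214 that was enriched in all 4 libraries, as were 0.330% of all bins. It held 45 hMeDIP reads (3.35-fold), 41 MeDIP reads (5.06-fold), 36 reads at 600 mM (4.50-fold) and 19 at 800 mM (3.46-fold) against 7 input reads. A second bin, 13104001-13105000, was enriched in both eluates, with 27 reads at 600 mM (3.32-fold) and 22 at 800 mM (3.70-fold), but not with the antibodies (18 hMeDIP reads, 1.59-fold, and 11 MeDIP reads, 1.67-fold). The 5′ end segment was above input in the eluates, at 2.16 (1.33 to 3.54) and 1.88 (1.07 to 3.27). The antibodies were not above input there beyond counting error, at 1.28 (0.794 to 2.09) in hMeDIP and 0.542 (0.238 to 1.13) in MeDIP. Upstream of the gene the bin 13121001-13122000 held 39 hMeDIP and 7 MeDIP reads and no eluate read, with 18 input reads.

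Esrrb encodes an orphan nuclear receptor and is by far the longest of the 7 genes. Over its 161 kb window hMeDIP held 3192 reads, MeDIP 1132, the 600 mM eluate 1464 and the 800 mM eluate 1073, against 1494 input reads. hMeDIP was at 2.15 (2.03 to 2.29), above 95.2% of windows of that length, MeDIP at 1.36 (1.25 to 1.46), the 600 mM eluate at 1.75 (1.63 to 1.88) and the 800 mM eluate at 1.79 (1.65 to 1.93). MeDIP and the 600 mM and 800 mM eluates were above 75.9%, 82.8% and 83.4% of such windows. The surrounding 1 Mb, which includes the gene, was also above input, at 1.69-fold in hMeDIP and 1.48-fold in MeDIP. Against the flanks of the gene in place of the input, hMeDIP was still higher in the window, but MeDIP was at 0.742, the 600 mM eluate at 0.795 and the 800 mM eluate at 0.816, where the 10 kb before the gene were at 3.15-fold, 3.67-fold and 3.80-fold. At least 1 library was enriched in 30 of the 161 bins, against 6.99% of all bins. No Esrrb bin was enriched in all 4, which held for 0.330% of all bins, too few for an absence in 161 bins to show a difference.

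The 2 antibodies followed different courses along Esrrb. In the first 30 kb hMeDIP was at 3.44 (2.91 to 4.07) and MeDIP at 3.80 (3.18 to 4.55), with the eluates at 3.66 and 3.41. From 30 to 110 kb hMeDIP was at 2.05 (1.87 to 2.24) and MeDIP at 1.37 (1.22 to 1.53). From 110 to 150 kb MeDIP fell below input to 0.360 (0.285 to 0.450), as did the eluates, at 0.814 (0.689 to 0.959) and 0.719 (0.589 to 0.873). Over this part as a whole hMeDIP was at 1.36 (1.21 to 1.54). In its 10 kb steps hMeDIP was at 0.793 (0.606 to 1.03), 2.37 (1.86 to 3.03), 1.27 (0.978 to 1.65) and 1.27 (0.999 to 1.61). Only the step from 120 to 130 kb was thus above input beyond counting error. In the last 11 kb hMeDIP reached 3.96 (3.22 to 4.89), MeDIP 1.40 (1.05 to 1.86), the 600 mM eluate 1.94 (1.49 to 2.52) and the 800 mM eluate 2.51 (1.92 to 3.27). Without the input, hMeDIP over MeDIP was 0.904 (0.796 to 1.03) in the first 30 kb, 1.50 (1.36 to 1.66) from 30 to 110 kb, 3.79 (3.05 to 4.76) from 110 to 150 kb and 2.82 (2.25 to 3.57) in the last 11 kb. The intervals of the first and the later parts do not overlap. Because the parts were set after this profile was seen, that separation adds no support of its own. In 10 kb steps the ratio ran from 0.656 (0.528 to 0.816) at 10 to 20 kb to 4.83 (2.87 to 8.69) at 130 to 140 kb. Of the 9 enriched bins of MeDIP, 7 lay in the first 30 kb, against 4 of the 15 of hMeDIP. These bins come from the same reads as the profile on which the cut was set, so their place adds no separate support.

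**Figure D4:**
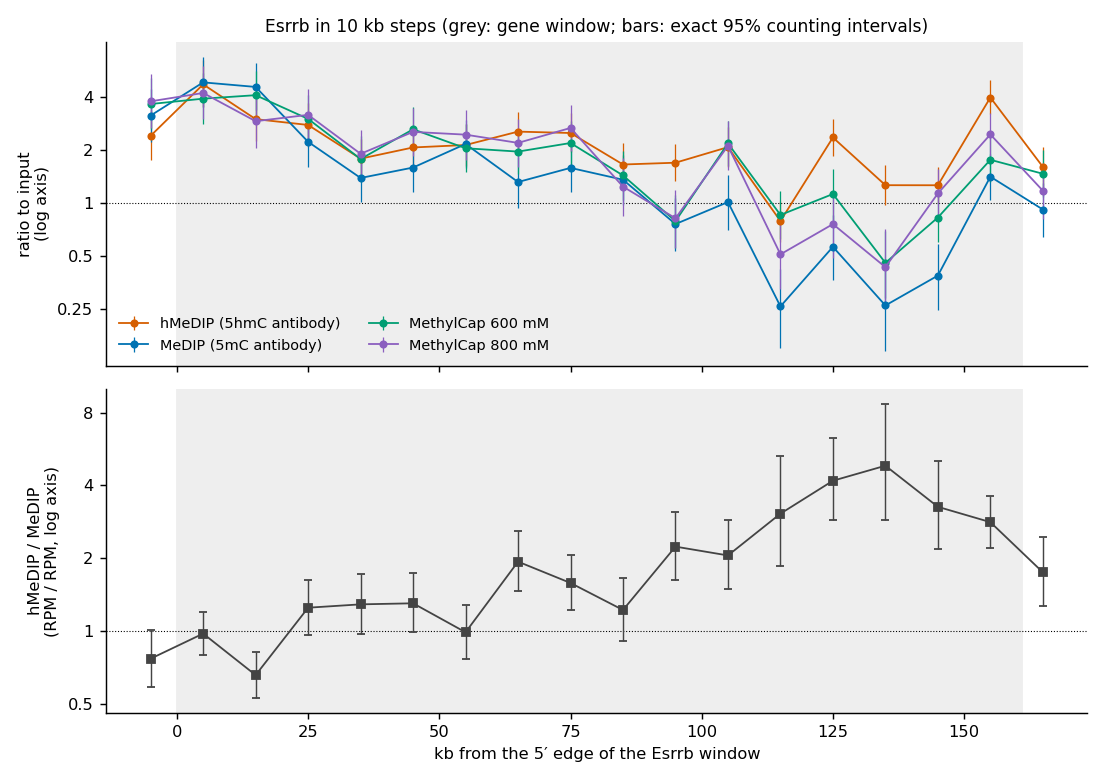
Esrrb in steps of 10 kb by distance from the 5′ edge of its window (grey). The upper panel gives the ratio to input of the 4 libraries and the lower panel hMeDIP over MeDIP (both RPM divided by RPM on log axes, bars are exact 95% intervals of read counts). MeDIP is at or above hMeDIP in the first 20 kb, and hMeDIP is 2.82-fold to 4.83-fold of MeDIP in the steps between 110 and 160 kb.

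Single bins showed both kinds of signal. At the 5′ edge of Esrrb the bin 87702001-87703000 held 66 hMeDIP reads (4.14-fold), 19 MeDIP reads (2.36-fold) and 7 reads of each eluate (1.19-fold at 600 mM, 1.46-fold at 800 mM) against 9 input reads. In steps of 250 bp, 28 of the 66 hMeDIP reads fell in each of its first 2 steps. By contrast, the bin 87710001-87711000 held 27 MeDIP reads (4.32-fold), 24 and 13 eluate reads (3.91-fold and 3.12-fold) and 2 hMeDIP reads (0.851-fold) against 4 of input, and it adjoined the highest MeDIP bin of the gene, 87709001-87710000, with 52 reads (5.58-fold). The highest hMeDIP bin, 87776001-87777000, held 80 reads, at 5.51-fold (raw ratio 5.34 to 29.6). It held 13 reads of MeDIP (1.99-fold), and both eluates were enriched, with 29 reads (3.74-fold) and 28 reads (4.83-fold). The bin 87744001-87745000 held 90 hMeDIP reads (5.46-fold) and 9 MeDIP reads (1.39-fold). Near the 3′ end, the bin 87857001-87858000 held 76 hMeDIP reads (3.53-fold), 7 MeDIP reads (0.898-fold) and 1 read of each eluate against 15 of input. Strands were unequal in several of these bins with the antibodies. Of the 76 hMeDIP reads at 87857001-87858000, 65 were on the plus strand, as were 67 of the 90 at 87744001-87745000 and 42 of the 52 MeDIP reads at 87709001-87710000, where the 600 mM eluate had 15 of 25. The highest hMeDIP bin was more even, with 34 of 80 on the plus strand. In Esrrb, hMeDIP reached 3-fold or more of MeDIP in 11 of the 161 bins, against 0.481% of all bins. The reverse held in 2 bins, against 0.406%. No bin of the other 6 windows passed either, but they held 53 bins, too few at these shares for an absence to show a difference.

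Read directly against each other, hMeDIP exceeded MeDIP at the windows of 5 of the 7 genes and at the flanks of 6. hMeDIP over MeDIP was 1.59 (1.49 to 1.69) over the 7 windows together and 1.56 (1.32 to 1.85) without Esrrb, on a scale where the whole genome is at 1. The flanks were higher still, at 1.81 (1.64 to 2.00) together and 2.14 (1.90 to 2.40) without Esrrb, so the ratio was not particular to the gene windows. Pooled over the windows without Esrrb, hMeDIP was not above input, at 0.926 (0.820 to 1.05), while MeDIP was low, at 0.594 (0.501 to 0.702). Among these windows Prdm14 alone was above input in hMeDIP beyond counting error. By gene, hMeDIP over MeDIP was 11.0 (2.85 to 94.0) at Klf4, 4.79 (1.14 to 42.8) at Sox2, 3.16 (1.90 to 5.55) at Zfp42, 1.76 (1.19 to 2.65) at Nanog and 1.59 (1.49 to 1.70) at Esrrb. At Pou5f1, with 8 and 4 reads, it was 1.13 (0.302 to 5.12), and at Prdm14 1.09 (0.873 to 1.36), so a difference was not detectable at these 2. The Klf4, Zfp42, Esrrb and Sox2 windows were above 98.5% or more of all windows of their length, although at Klf4 and Sox2 this rests on 2 MeDIP reads each. The flanks, with more reads, were 5.03 (3.54 to 7.35) at Sox2, 2.48 (1.56 to 4.08) at Zfp42, 2.20 (1.62 to 3.04) at Pou5f1, 1.93 (1.48 to 2.54) at Klf4, 1.68 (1.31 to 2.18) at Prdm14 and 1.59 (1.28 to 2.00) at Nanog, and 0.949 (0.769 to 1.17) at Esrrb. Over the 1 Mb around each gene it was 0.957 to 1.36, with intervals above 1 at every gene except Sox2. The 1 Mb around Sox2 was at 0.957 (0.929 to 0.986), below 1, where its window and flanks were above.

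The ratio of the antibodies moved with the level of MBD capture in the genome at large. Among all bins, hMeDIP over MeDIP was 1.25 in those without a 600 mM read, 1.14 with 1 to 5 reads, 0.916 with 6 to 20 reads and 0.729 with 21 or more. In the 7 windows the same classes gave 2.27 (1.54 to 3.44) over 17 bins, 2.18 (1.91 to 2.49) over 84 bins, 1.58 (1.45 to 1.72) over 95 bins and 1.00 (0.872 to 1.15) over 18 bins. The windows were thus higher than all bins in each class, most of these bins being from Esrrb. A library prepared with an unspecific antibody was not part of the series, and the part of unspecific pulldown in these ratios was not tested.

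**Figure D5:**
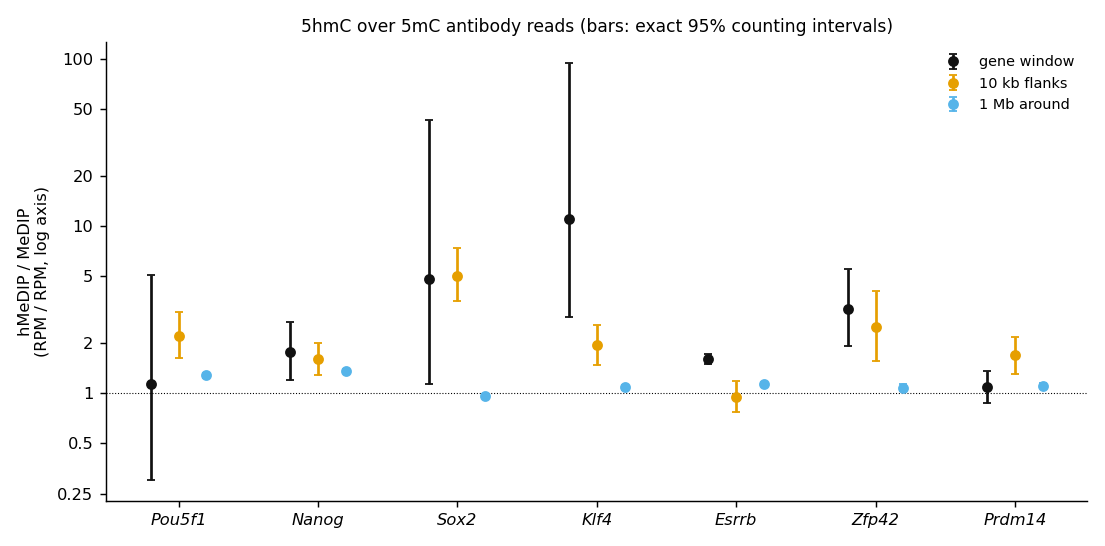
hMeDIP over MeDIP (RPM divided by RPM, log axis) in each gene window, its 10 kb flanks and the 1 Mb around it, with exact 95% intervals of read counts, 1 library each. The window or flank intervals lie above 1 at each gene. The 1 Mb values lie between 0.957 and 1.36, and their intervals are also above 1 at every gene except Sox2.

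The MethylCap eluates did not differ beyond counting error over most of the loci. The 800 mM eluate over the 600 mM eluate was 1.04 (0.971 to 1.12) over the 7 windows together, and its interval included 1 at Sox2, Nanog, Klf4, Esrrb and Prdm14. It was above 1 at Pou5f1 (16.7) and below it at Zfp42, at 0.498 (0.283 to 0.842). At Zfp42 the bin near the 3′ end described above held 31 of the 56 reads at 600 mM and 4 of the 20 at 800 mM. A difference of 3-fold or more was present in 3 of the 214 bins in favour of 800 mM, where 0.221% of all bins had one, and in 3 in favour of 600 mM, where 0.111% of all bins did. Both counts are small, and bins with few reads can hardly reach 3-fold with 0.5 RPM added, so the shares are not strictly alike. Of the 3 bins in favour of 800 mM, 2 were those at Pou5f1, where the source of the reads was not tested.

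At the 5′ ends, the loci ranked differently in each library. hMeDIP over the 5′ end segment was 4.49 (2.74 to 7.70) at Esrrb, 2.24 (1.63 to 3.10) at Nanog, 1.28 (0.794 to 2.09) at Prdm14, 0.441 (0.153 to 1.13) at Klf4, 0.352 (0.182 to 0.646) at Sox2, 0.285 (0.141 to 0.536) at Zfp42 and 0.133 (0.0408 to 0.338) at Pou5f1. Neighbours in this order overlap in their intervals, and the intervals of Esrrb and Nanog lie above those of Sox2, Zfp42 and Pou5f1. MeDIP was above input at Esrrb, at 2.50 (1.36 to 4.69), and at Nanog, at 1.55 (1.04 to 2.29). In the 600 mM eluate the order began with Esrrb, at 2.23 (1.19 to 4.24), and Prdm14, at 2.16, and Nanog was at 0.726 (0.432 to 1.19). The 5′ end segments of Klf4 and Sox2 held 1 and 2 reads of the 600 mM eluate against 16 and 43 of input, and 0 and 1 of the 800 mM eluate. The 2 genes whose segments were highest in hMeDIP had the fewest CpG sites of the 6 matched sequences, but a relation was not tested. This order holds for the starts farthest upstream. At a second annotated start Pou5f1 had 6 sites, as many as Esrrb at its first, while Esrrb had 3 and Nanog 2. The sequences cover 250 bases and the segments 3 kb, and Prdm14 had no sequence. At Nanog, 109 of the 131 hMeDIP reads of the segment lay in the bin before the window.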

How the data were processed

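MeDIP, hMeDIP, MethylCap and input DNA of mouse embryonic stem cells were sequenced in 5 libraries, 1 per group. The deposited files list aligned reads of 35 bp, and the deposited count in column 5 is 1 in every line. The submitters' processing notes name mm9 and BWA 0.5.8. Another value in the deposited column 4 is 0 or 1, with a meaning that no source used here states, and it served only to leave out reads in an alternative. A position and strand held at most 1 read in hMeDIP, MeDIP and input and at most 2 in the eluates, which caps dense signals differently between libraries. Column 4 was 1 in 0% of the reads of both antibody libraries, 7.88% at 600 mM, 8.22% at 800 mM and 8.38% of input. In the Zfp42 window it was 1 in 30.4% of the reads at 600 mM and 17.8% of input. Read filters are not given in the sources used here.

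Reads were assigned by midpoint to 1 kb bins and scaled to reads on chromosomes 1 to 19 and X. Window ratios are ratios of RPM with exact Clopper-Pearson intervals (95%) of the conditional binomial. Windows of each gene's length were tiled over the genome for comparison, keeping those with at least 3 input reads per kb. Bin ratios used a pseudocount of 0.5 RPM. All 7 genes were named. Single bins were taken from the bins of highest ratio in each library (5 or more input reads) and from bins enriched in 2 or more libraries. Bins with 10 or more input reads and no read in a library could also be named. Not every bin of these kinds is given, and other single bins were chosen after their values were seen. The members and lists were chosen with earlier results of these data known. The calling rule and the intervals were tested on simulated data. Other pluripotency genes were not located, since no mm9 annotation was used here. Analyses used Python 3.11.15, numpy 2.4.6, pandas 2.3.3, scipy 1.17.1 and matplotlib 3.10.9. Alternatives were other pseudocounts, thresholds, bins, read filters, scalings and reference regions.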

Additional observations from a re-analysis of the deposited data

How the results depend on the processing

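Shifting reads by 100 bp left the pooled ratios and all 28 window ratios within their intervals and the counts of enriched bins within 1.5 times, as did offset bins for the counts. Dropping reads with a 1 in column 4, or second reads at a position and strand, did so too, but the first takes no read from the antibody libraries and the second acts on the eluates alone. Bins of 500 bp also kept the counts within 1.5 times, but over more and smaller bins, so the shares were lower. Over all bins the share fell from 1.93% to 1.11% in hMeDIP and from 4.27% to 2.59% at 800 mM. The order hMeDIP, MeDIP, 600 mM, 800 mM is kept below. The pooled ratios over the 7 windows were 1.82, 1.15, 1.53 and 1.60. With the median ratio set to 1 they were 2.17, 1.37, 2.03 and 2.28, and the enriched bins numbered 27, 15, 27 and 41 while the shares over all bins rose with them to 3.43%, 4.19%, 6.91% and 9.03%. Divided by the pooled flanks, MeDIP was 2.09 and the eluates 2.15 and 2.24. These quotients set unlike mixtures of genes side by side, since Esrrb gave 161 of the 214 window bins but 20 of the 140 flank bins. They do not show windows above their own flanks, and Esrrb was below its own in these libraries, as given below. Without the Esrrb window, an alternative chosen after seeing the data, as was leaving out Nanog (which moved no pooled ratio beyond its interval), the ratios were 0.926, 0.594, 0.964 and 1.11, and the enriched bins 1, 1, 3 and 5. With a pseudocount of 0.1 RPM the enriched bins numbered 43, 21, 32 and 43 (over all bins 7.43%, 8.42%, 9.66% and 10.3%), and at 2-fold 45, 24, 38 and 46 (6.62%, 7.71%, 9.36% and 10.1%). With 1 RPM they numbered 5, 3, 1 and 4, so 600 mM fell to 0.467% against 0.980% of all bins and 800 mM to 1.87% against 1.54%. At 5-fold they numbered 2, 3, 0 and 1, with both eluates below all bins, at 0% and 0.467% against 0.593% and 0.875%. The excess of enriched bins in the eluates was thus lost at 5-fold, and with 1 RPM it was lost at 600 mM and small at 800 mM. Requiring 5 input reads left 10 in hMeDIP and 6 in MeDIP. Divided by its flanks, the Zfp42 window turned to 1.32 in hMeDIP, 1.03 in MeDIP and 2.05 at 600 mM, the Esrrb window to 0.742 in MeDIP, 0.795 at 600 mM and 0.816 at 800 mM, and the Nanog window to 1.07 and 1.25 in the eluates. The cause was not tested. No paired analysis was possible because each group has 1 library. At a median of 7 input reads per bin, single bins could not show small differences.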
